A study of Mus musculus with 26 samples.

Results

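The 7 genes described here are Plat, Plau, Plaur, Serpine2, Serpinf1, Serping1 and Slpi. They encode plasminogen activators, the urokinase receptor, secreted protease inhibitors and, in Serpinf1, a serpin without inhibitory activity. They were picked by name, out of 55341 genes counted, because earlier results of these data showed Serpine2 lost in the SMYD3 clone and Slpi moving in opposite directions after knockdown and in the clone. The comparisons of each siRNA with control and of the clone with vector therefore chose the genes, and the values of the 7 in them are given as description with no test. Tests are given for what the choice did not use: the change over 24 h within each group, the difference between the 2 siRNAs, and the RNA extraction method. The within-group changes rest on the same libraries as the choice.

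All 26 RNA-Seq libraries came from C2C12, a mouse myoblast cell line that forms myotubes when serum is withdrawn, collected at 0 h and at 24 h of differentiation. In the knockdown experiment, wild-type C2C12 cells were transfected repeatedly with a control siRNA (siCtrl) or with 1 of 2 siRNAs against the lysine methyltransferase gene Smyd3 (siSMYD3#1 and siSMYD3#2), with 3 libraries for each of the 6 groups. In the overexpression experiment, cells carrying an empty retroviral vector were compared with SMYD3 CL5, a single clone that stably expresses HA-FLAG-tagged SMYD3, with 2 libraries for each of the 4 groups. Since SMYD3 CL5 is 1 clone, what belongs to the clone and what belongs to SMYD3 cannot be told apart. Total counts ranged from 14315193 to 67853386 per library.

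Plasmin is a broad serine protease that degrades fibrin and matrix proteins and can release growth factors. It is made from plasminogen by the tissue-type activator (Plat) and the urokinase-type activator (Plau), the latter held at the cell surface by the receptor Plaur. Most serpins are suicide inhibitors that are cleaved by their target protease and trap it. The balance of activators and inhibitors at the surface of muscle precursor cells is known for its part in migration, fusion and repair.

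The siRNAs are the reagents by which the groups of the knockdown experiment differ, so their guide strands are shown 5′ to 3′, with the seed (bases 2 to 8) in capitals.
siSMYD3#1: gUUGGGGUcacagcuguga
siSMYD3#2: uCAAAUCUucaaucaggcu
The full 19 bases of each matched only Smyd3 among the GENCODE M21 transcripts. The site of siSMYD3#1 lies in coding exon 7 of transcript Smyd3-204 (GRCm38, chr1:179092935-179092953, minus strand) and that of siSMYD3#2 in coding exon 12 (chr1:178957505-178957523). Searched on the sense strand of each gene's longest coding transcript, the 7-letter seed match of siSMYD3#1, ACCCCAA, was found once each in Plat and Serping1 and in 24.1% of 21901 genes. The seed match of siSMYD3#2, AGATTTG, was found in 0 of the 7 genes and in 20.3% of all. A match of letters is a description and shows no binding.

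Serpine2 and Slpi are the genes on which the choice rests, and Plaur is the member whose window held the most matches of the SMYD3-associated sequences, so the bases before their RefSeq starts are shown (GRCm38.p6, the first 2 on the minus strand and Plaur on the plus strand, read 5′ to 3′, annotated exon bases left out). The annotated genes of Serpine2 and Slpi reach further upstream, to 79861180 and 164389095, so the bases shown for them lie within the annotated genes. Capitals mark CANNTG, the E-box bound by myogenic basic helix-loop-helix factors, and CCCTCC and GAGGGG, short sequences associated with SMYD3 binding. All were searched on both strands.
Serpine2, chr1:79858697-79858915: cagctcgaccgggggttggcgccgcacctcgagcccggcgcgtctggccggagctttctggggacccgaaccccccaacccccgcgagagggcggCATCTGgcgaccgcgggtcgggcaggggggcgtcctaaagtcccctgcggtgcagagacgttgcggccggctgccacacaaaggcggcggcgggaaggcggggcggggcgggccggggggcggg
Slpi, chr2:164356508-164356757: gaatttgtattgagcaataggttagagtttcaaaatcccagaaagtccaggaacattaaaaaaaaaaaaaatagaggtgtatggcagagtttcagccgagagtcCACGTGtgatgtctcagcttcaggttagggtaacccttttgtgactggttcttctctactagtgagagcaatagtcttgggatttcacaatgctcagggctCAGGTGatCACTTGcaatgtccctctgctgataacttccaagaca
Plaur, chr7:24462233-24462482: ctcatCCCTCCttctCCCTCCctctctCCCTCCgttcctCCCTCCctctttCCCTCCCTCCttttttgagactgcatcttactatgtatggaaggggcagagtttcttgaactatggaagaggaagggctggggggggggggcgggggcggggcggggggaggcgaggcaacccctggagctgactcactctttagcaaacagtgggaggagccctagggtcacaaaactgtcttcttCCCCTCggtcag
In the whole windows of 250 bases before to 50 after the start, CANNTG was found 1 time in Serpine2, 4 times in Slpi and Serpinf1 and 0 times in Plaur, and in 72.3% of all 32851 windows. CCCTCC was found 6 times in Plaur, with overlaps, and 1 time in Serpinf1, and GAGGGG 1 time in Plaur, while the windows of Serpine2 and Slpi held neither. CCCTCC occurred in 39.2% of all windows and GAGGGG in 32.9%. Promoter entries were at hand for these 4 of the 7 genes.

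Some libraries stood apart from the others of their group. In each siRNA group 1 library was extracted with TRIzol at passage 11 and 2 with NucleoSpin at passage 14. The TRIzol libraries correlated less well with the rest of their group (r = 0.973 to 0.982 across genes, against 0.990 to 0.995 for the NucleoSpin libraries), so extraction was a term in the model. The 2 SMYD3 CL5 libraries at 0 h differed most (r = 0.954), and Myog, the muscle transcription factor myogenin, was at 15.1 and 78.9 CPM (counts scaled to a common library size) in them. Values of the clone at 0 h are given with each of these libraries where they part. Smyd3 itself was at 5.46 to 9.91 CPM in the 6 siSMYD3#2 libraries, below all others of the knockdown experiment. At 0 h the siSMYD3#1 libraries (17.4 to 20.2 CPM) lay below siCtrl (20.3 to 22.1), as in 5.8% of all genes. At 24 h siSMYD3#1 (15.6 to 19.7 CPM) and siCtrl (18.3 to 21.3) overlapped. Smyd3 was at 15.1 to 17.7 CPM with vector and 16.0 to 26.1 in SMYD3 CL5 at 0 h, which overlapped. At 24 h the clone (20.0 and 23.0 CPM) lay above vector (15.8 and 17.2), as in 26.5% of all genes. These values are RNA counts and do not measure protein. The paper also followed SMYD3 by western blot and quantitative PCR after knockdown, and FLAG-tagged SMYD3 by western blot in the clone. The myoblast markers Myod1, Myf5, Des, Cdh15, Cdh2 and Ncam1 were all at or above a mean of 1 CPM, summing to 473 to 2189 CPM per library, while 4 of 5 leukocyte markers, 4 of 5 epithelial markers and 4 of 4 endothelial markers were below it. Of 5 fibroblast markers 4 were above it.

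In wild-type cells treated with siCtrl, differentiation for 24 h lowered Slpi and raised Plat and Serping1, and the other 4 genes did not pass the threshold of an adjusted p under 0.01 (edgeR quasi-likelihood test, Benjamini-Hochberg over 15820 genes). The 2 that rose and the 1 that fell stand beside 14.6% of all genes called higher and 14.8% called lower in that comparison. With siSMYD3#1, Plat, Plau and Serpine2 rose and Slpi fell, beside 12.7% called higher and 12.7% lower. With siSMYD3#2, no member rose and Plaur and Slpi fell, beside 9.11% called higher and 9.88% lower. In the vector and SMYD3 CL5 cells 0 of 7 passed, and 0% of 17835 genes did in either direction. In those 2 comparisons an unadjusted p under 0.05 was reached by 3 and 4 of the 7 genes and by 1256 and 1137 of all genes, and DESeq2 called 85 genes higher and 27 lower with vector and 69 and 27 in the clone, with 1 member (Slpi) and 0 members among them.

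**Figure D1:**
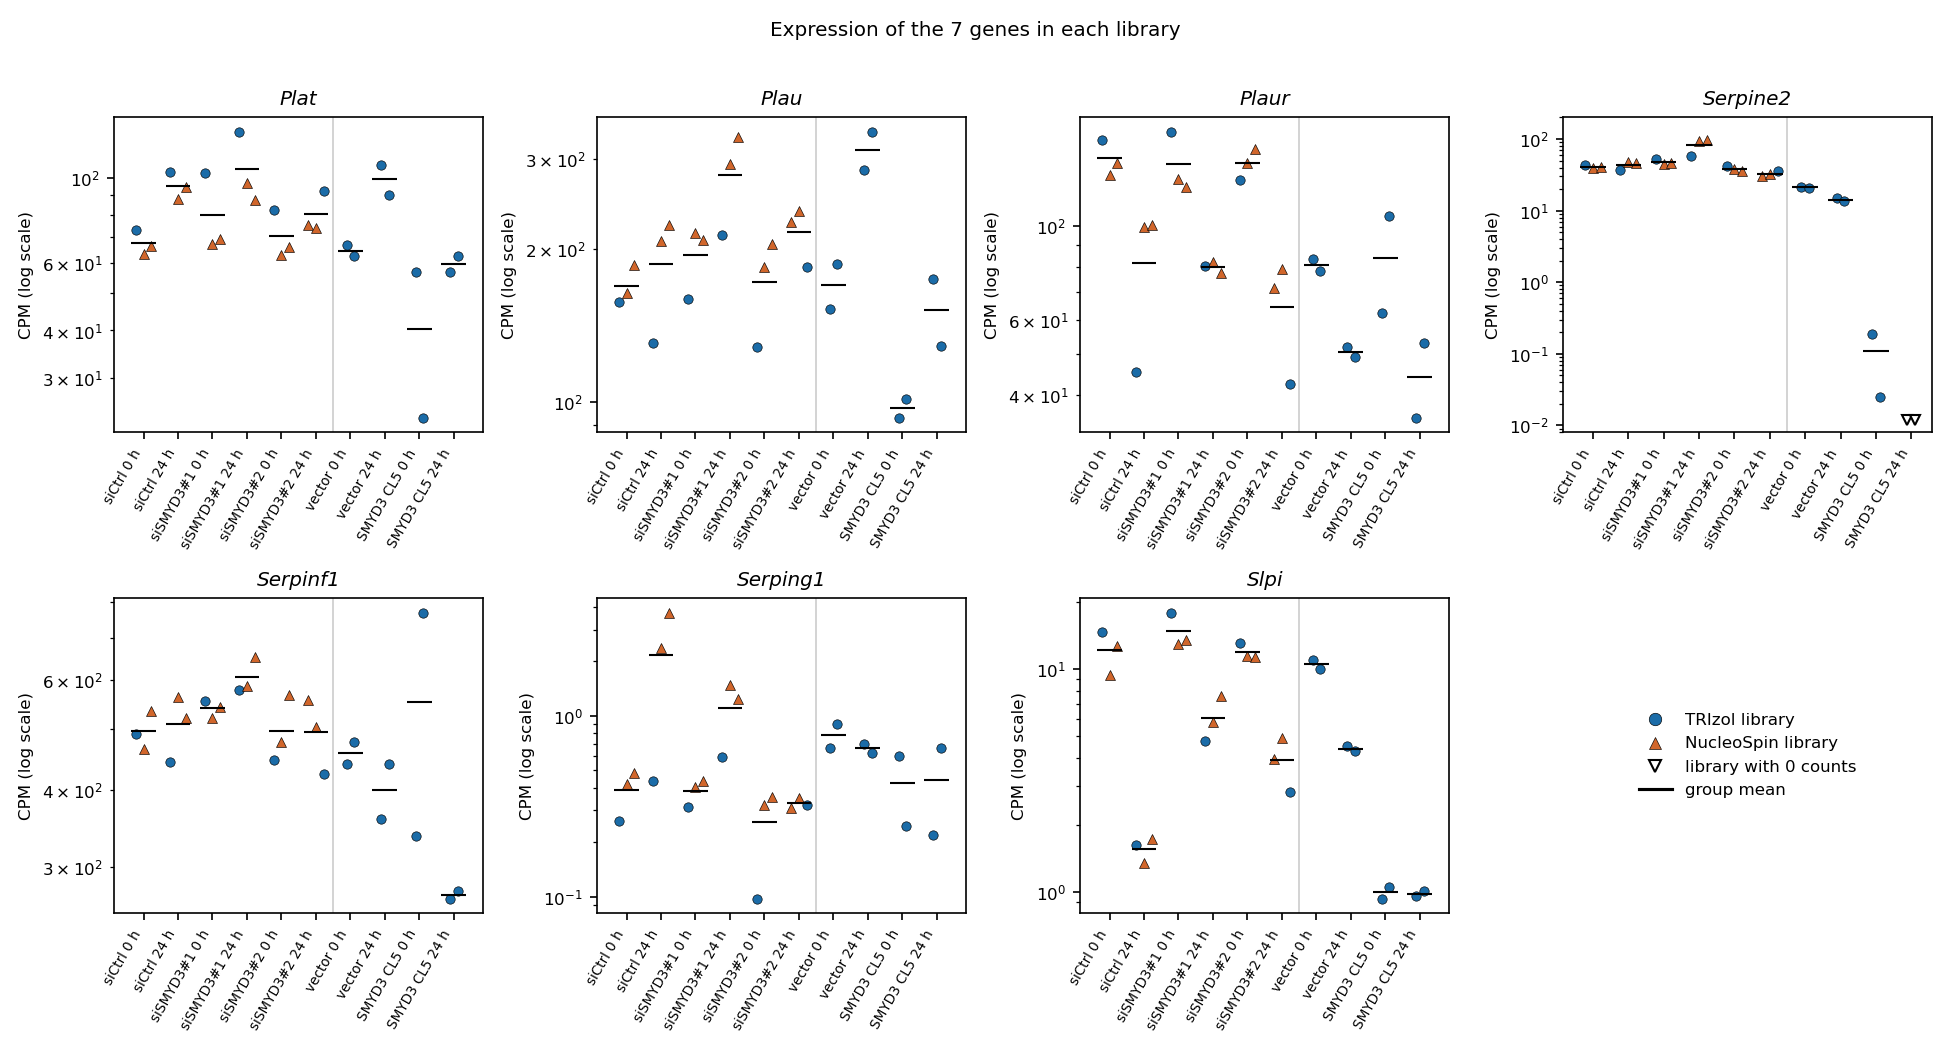
CPM (log scale) of the 7 genes in each of the 26 libraries, by group. Circles are TRIzol and triangles NucleoSpin libraries, and the bar is the group mean. Serpine2 was at 0.192 and 0.0247 CPM in the clone at 0 h and had 0 counts in both clone libraries at 24 h.

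Plat (ENSMUSG00000031538, chr8:22757727-22782844, plus strand) encodes the tissue-type activator, which acts best on fibrin. In siCtrl it stood at 73.2 CPM in the TRIzol library and 63.3 and 66.4 in the NucleoSpin libraries at 0 h, and at 104, 87.9 and 94.6 at 24 h. All 3 libraries at 24 h lay above all 3 at 0 h, as in 16.4% of all genes. The log2 fold change was 0.51 ± 0.09 (SE, adjusted p = 0.00024, edgeR). With siSMYD3#1 it went from 103, 67.3 and 69.3 CPM to 132, 96.6 and 87.4, which overlap because the TRIzol libraries were higher at each time. The log2 change with extraction in the model was 0.41 ± 0.09 (adjusted p = 0.0019, edgeR), and it was 0.36 between the TRIzol libraries and 0.43 between the NucleoSpin means. Leaving out any of 3 of the 6 libraries brought the adjusted p above 0.01, to at most 0.016. With siSMYD3#2 the change was 0.22 ± 0.09 (adjusted p = 0.082, edgeR). In vector cells Plat was at 66.6 and 62.4 CPM at 0 h and at 108 and 90.3 at 24 h, with no overlap (as in 33.9% of all genes). Its level in SMYD3 CL5 was 57.0 and 23.7 CPM at 0 h and 56.8 and 62.6 at 24 h, so that all 4 clone libraries lay below the vector libraries of their time, but the distance at 0 h depended on which clone library was read.

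Plau (ENSMUSG00000021822, chr14:20836660-20843385, plus strand) encodes urokinase, the activator that works at the cell surface. It was the activator with the higher level per length: in siCtrl at 0 h its mean was 71.4 CPM per kb of exon against 10.8 for Plat. With siCtrl it was at 157 CPM in the TRIzol library and 164 and 186 in the NucleoSpin libraries at 0 h, and at 131, 207 and 222 at 24 h. The TRIzol library went down and the NucleoSpin libraries up, and the change of 0.12 ± 0.10 did not pass (adjusted p = 0.37, edgeR). With siSMYD3#1 Plau rose from 159, 215 and 208 CPM to 213, 293 and 332. This log2 change of 0.53 ± 0.10 passed (adjusted p = 0.00062, edgeR) and had the same sign in the TRIzol (0.42) and NucleoSpin libraries (0.56). With siSMYD3#2 the change was 0.36 ± 0.10 (adjusted p = 0.012, edgeR), which DESeq2 called (adjusted p = 0.0042). In vector cells Plau was at 153 and 187 CPM at 0 h and 287 and 340 at 24 h, the highest group mean of the series (313 ± 37.7 CPM, SD, n = 2). In the clone it was at 93.1 and 101 CPM at 0 h and 175 and 129 at 24 h, below the vector libraries at each time.

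Plaur (ENSMUSG00000046223, chr7:24462484-24475968, plus strand), the urokinase receptor, was lower at 24 h than at 0 h in all 5 pairs of groups, with no overlap in any of them. A fall without overlap was seen for 18.8% of all genes in siCtrl, 17% with siSMYD3#1 and 14.8% with siSMYD3#2. The share was 27.9% with vector and 11.4% in the clone. In siCtrl the levels of Plaur were 159, 132 and 141 CPM at 0 h against 45.3, 99.0 and 100.2 at 24 h. The TRIzol library fell by 1.81 on the log2 scale and the NucleoSpin mean by 0.45, and the fitted change of -0.84 ± 0.26 did not pass (adjusted p = 0.017, edgeR). Its level with siSMYD3#1 was 166, 128 and 123 CPM at 0 h and 80.5, 82.0 and 77.5 at 24 h (log2 change -0.80 ± 0.26, adjusted p = 0.023, edgeR). With siSMYD3#2 it fell from 128, 140 and 151 CPM to 42.5, 71.4 and 79.2, a change of -1.12 ± 0.26 (adjusted p = 0.0047, edgeR). That call was lost when any of 5 of the 6 libraries was left out, with adjusted p up to 0.020. DESeq2 called Plaur in siCtrl and siSMYD3#1 as well (adjusted p = 0.0012 and 0.0025). Among the NucleoSpin libraries alone Plaur passed in siCtrl and siSMYD3#1 too (log2 changes -0.44 and -0.65, adjusted p = 0.00045 and 1.3e-05, edgeR). Vector libraries went from 83.4 and 78.3 CPM to 51.8 and 49.3, and clone libraries from 62.5 and 105 to 35.4 and 52.9.

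Serpine2 (ENSMUSG00000026249, chr1:79794197-79861180, minus strand) encodes protease nexin-1, a serpin that inhibits thrombin, urokinase and plasmin. In siCtrl it was at 43.2, 39.4 and 41.0 CPM at 0 h and 37.1, 47.4 and 46.9 at 24 h (TRIzol library first), which overlap (log2 change 0.10 ± 0.16, adjusted p = 0.65, edgeR). With siSMYD3#1 it went from 53.3, 44.4 and 45.7 CPM to 57.1, 92.6 and 98.2. Every library at 24 h lay above every library at 0 h, as in 15% of all genes. The log2 change was 0.79 ± 0.16 (adjusted p = 0.00087, edgeR). The size differed by extraction, at 0.10 between the TRIzol libraries and 1.08 between the NucleoSpin means, and it missed the threshold when only these 2 groups were fitted (adjusted p = 0.019). With siSMYD3#2 Serpine2 was at 41.8, 38.3 and 35.8 CPM at 0 h and 35.4, 30.4 and 32.9 at 24 h, a change of -0.21 ± 0.16 that did not pass (adjusted p = 0.34, edgeR).

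The 2 siRNAs therefore gave different levels of Serpine2 at 24 h. Every siSMYD3#1 library was above every siSMYD3#2 library, as in 7.1% of all genes. The log2 difference was 1.31 ± 0.16 (adjusted p = 9.9e-05, edgeR). It was 0.69 between the TRIzol libraries and 1.59 between the NucleoSpin means. Serpine2 was the only member past the threshold in this comparison, in which 2.05% of all genes were called higher and 1.31% lower. Plat, Plau and Serping1 had adjusted p of 0.018, 0.040 and 0.038. At 0 h the Serpine2 libraries were also apart (44.4 to 53.3 against 35.8 to 41.8 CPM), as in 4.2% of all genes. That difference of 0.31 ± 0.16 did not pass (adjusted p = 0.42, edgeR). There 0 of 7 passed between the siRNAs, and 0 had an unadjusted p under 0.05, beside 0.379% of genes called higher and 0.79% lower. DESeq2 also called 0 members there. The test of whether the change over time differed between the siRNAs called 0 members and 0% of all genes in either direction by edgeR, with 1 member and 961 genes at an unadjusted p under 0.05. That member was Serpine2 (difference 1.00 ± 0.23, adjusted p = 0.18), and DESeq2 called 0 members, with 16 genes higher and 6 lower in all. It passed with the NucleoSpin libraries alone (1.30 ± 0.13, adjusted p = 9.3e-05), without the TRIzol siSMYD3#1 library at 24 h (1.23, adjusted p = 0.0021) and with no filter on low counts (0.99 ± 0.17, adjusted p = 9.1e-06, edgeR).

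The summed level of 5 fibroblast markers, most of it Col3a1, was 5141 to 6021 CPM in siCtrl, 7915 to 13989 with siSMYD3#1 and 5824 to 6658 with siSMYD3#2 at 24 h, and 7543 to 7993 with vector and 2071 to 2163 in the clone. The markers did not all go the same way. At 24 h Col3a1 had a mean of 5111 CPM in siCtrl and 10481 with siSMYD3#1, and Pdgfra 6.64 and 10.5, but Dcn 51.2 and 35.4, and Thy1 had 0 counts. Between vector and clone at 24 h, Col3a1 (7157 and 2070 CPM) and Dcn (76.6 and 13.2) were lower in the clone and Pdgfra was higher (14.9 and 20.3). Over 24 h in vector cells the sum, at 3207 to 4287 CPM at 0 h, was higher at 24 h, whereas Serpine2 was lower. Their part in the differences of Serpine2 was not tested.

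**Figure D2:**
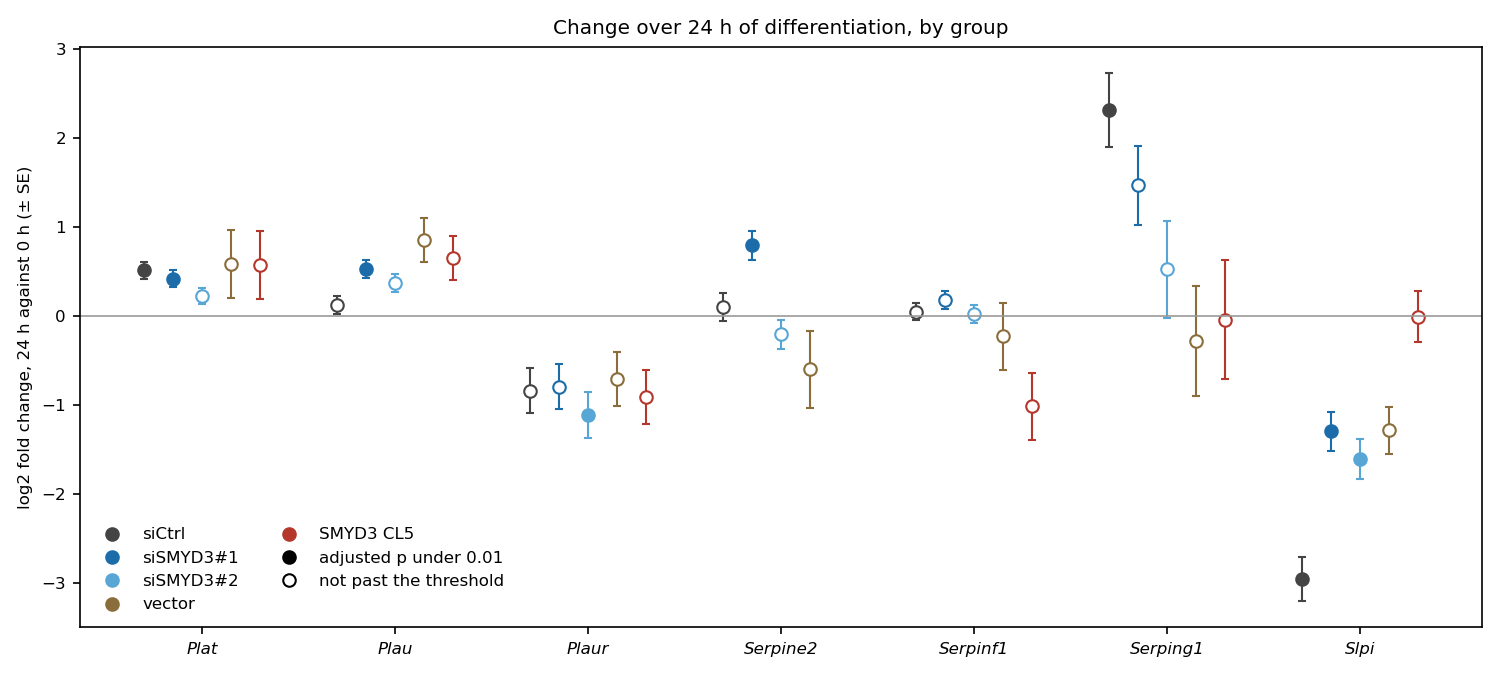
Log2 fold change of 24 h against 0 h with its standard error for the 7 genes, in siCtrl, siSMYD3#1, siSMYD3#2, vector and SMYD3 CL5 cells. Filled points passed an adjusted p under 0.01 in edgeR. Slpi fell in the 3 siRNA groups, by 2.96 on the log2 scale in siCtrl. Serpine2 in SMYD3 CL5 is left out because it had 9 counts in all.

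In the overexpression experiment Serpine2 was the gene that chose the group. Vector cells held 750 and 945 counts at 0 h and 729 and 942 at 24 h (21.6, 20.7, 14.98 and 13.6 CPM). SMYD3 CL5 held 8 and 1 counts at 0 h and 0 and 0 at 24 h. The vector-to-clone ratio of CPM at 0 h was 193, with an exact 95% counting interval of 101 to 423. Against each clone library alone it was 110 (55.8 to 256) for the one with 8 counts and 856 (154 to 33846) for the one with 1 count. At 24 h the vector was at least 156-fold higher, taking 3 counts in each clone library as the limit. Intervals and limits of this kind cover counting error only. The vector cells were themselves below the siRNA cells, whose libraries ranged from 30.4 to 98.2 CPM. The vector libraries were all extracted with TRIzol, and the siRNA libraries extracted with TRIzol were at 35.4 to 57.1 CPM. What set vector and siRNA cells apart was not tested.

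**Figure D3:**
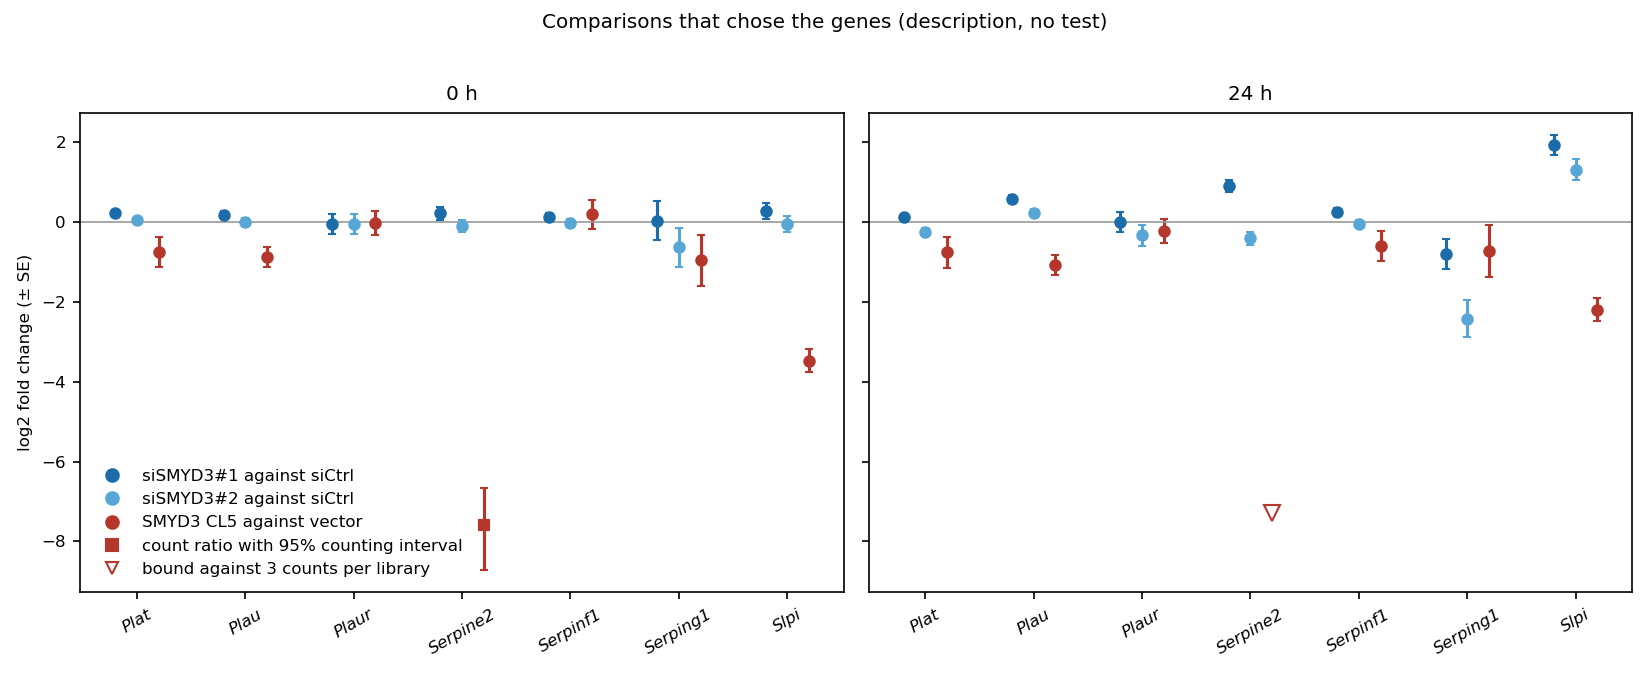
Log2 fold change (± SE) of the 7 genes for each siRNA against siCtrl and for SMYD3 CL5 against vector, at 0 h (left) and 24 h (right). These comparisons chose the genes and carry no test. Slpi at 24 h stood at 1.93 and 1.31 with the siRNAs and at -2.19 in the clone. Serpine2 in the clone is shown as a count ratio at 0 h and as a bound at 24 h.

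No tested gene around Serpine2 came near its difference in the clone. Of 16 other genes tested within 2 Mb, 0 passed the threshold at 0 h or at 24 h (edgeR), and their median log2 difference at 24 h was 0.10. In that comparison 0.376% of all genes were called higher and 0.589% lower at 24 h, and 0.465% and 0.606% at 0 h. The nearest on the lower side were Mrpl44, Wdfy1 and Ap1s3 and on the upper side Gm5529, Gm28071 and Cul3. Mrpl44, 12.8 kb away, had 812 and 1113 counts with vector and 843 and 432 in the clone at 24 h (log2 difference -0.01 ± 0.28). Cul3, 404 kb away, was at 141 CPM with vector and 109 in the clone. Serpine2 overlaps no exon of another annotated gene.

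**Figure D4:**
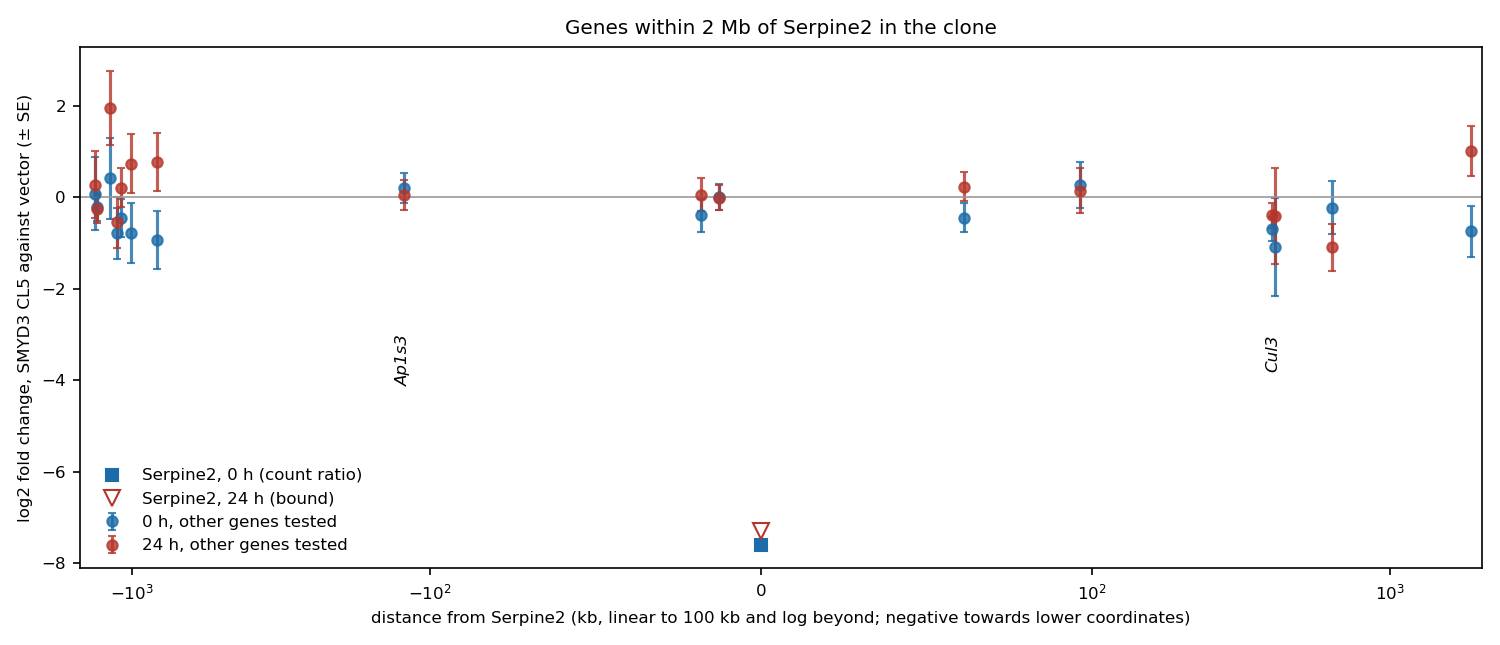
Log2 fold change (± SE) of SMYD3 CL5 against vector for the 16 tested genes within 2 Mb of Serpine2, by distance from it in kb, at 0 h and 24 h. Serpine2 is drawn at 0 kb as its count ratio at 0 h and its bound at 24 h. The other genes scatter around 0, from -1.10 to 1.95 at 24 h.

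Over all 26 libraries, the 5 genes whose log2(CPM + 1) values were most like those of Serpine2 were Pcsk6 (r = 0.973), Gtpbp10 (0.969), Nrep (0.965), Sox12 (0.959) and Cd276 (0.957). Pcsk6, which encodes a proprotein convertase, had a group mean of 5.34 CPM with vector and 0.01 in the clone at 0 h. Gtpbp10 went from 10.7 to 0.02 CPM and Nrep from 30.8 to 1.06. Over the 18 siRNA libraries alone, without the vector and clone libraries, r was 0.575, 0.067, 0.495, 0.009 and 0.545 in the same order. These libraries share depth, extraction and group structure, so the values are a description.

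Serpinf1 (ENSMUSG00000000753, chr11:75409769-75422701, minus strand), a serpin without inhibitory activity known as pigment epithelium-derived factor, had the highest level of the 7 per length, at 211 CPM per kb in siCtrl at 0 h. Its siRNA libraries ranged from 424 to 654 CPM and changed little: the log2 changes over 24 h were 0.04 ± 0.10 in siCtrl, 0.17 ± 0.10 with siSMYD3#1 and 0.01 ± 0.10 with siSMYD3#2, and 0 of the 3 passed. In the clone it was at 336 and 770 CPM at 0 h, a spread wider than that of any other group, and at 267 and 274 at 24 h, below the vector libraries at 359 and 440. The clone stood 0.20 ± 0.37 above vector at 0 h on the log2 scale, but 0.48 below without the library at 770 CPM and 0.73 above without the other. The change over time in the clone, -1.02 ± 0.38, did not pass (adjusted p = 0.68, edgeR). It passed when the 0 h library at 336 CPM was left out (-1.51 ± 0.19, adjusted p = 0.0043, edgeR), and so did Plat (1.33 ± 0.20, adjusted p = 0.0063). Those fits assume that the lone library varies like the other groups.

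Serping1 (ENSMUSG00000023224, chr2:84765387-84775444, minus strand) encodes the C1 inhibitor, which blocks complement and contact-system proteases. It had few counts, 2 to 56 per library. In siCtrl the NucleoSpin libraries went from 11 and 27 counts at 0 h to 53 and 56 at 24 h, while the TRIzol library had 7 and then 12. Its levels were 0.42 and 0.48 CPM and then 2.38 and 3.73 in the former, and 0.26 and 0.43 in the latter. The fitted log2 change was 2.31 ± 0.42 (adjusted p = 0.00021, edgeR), and it was 0.73 between the TRIzol libraries and 2.76 between the NucleoSpin means. Without extraction as a term the adjusted p was 0.011. With siSMYD3#1 the change was 1.46 ± 0.44 (adjusted p = 0.014, edgeR) and with siSMYD3#2 0.52 ± 0.55 (adjusted p = 0.50, edgeR), where no library had over 14 counts. At 24 h all 3 siSMYD3#2 libraries, at 0.31 to 0.35 CPM, lay below all 3 siCtrl libraries, as in 8% of all genes.

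Slpi (ENSMUSG00000017002, chr2:164354070-164389095, minus strand) encodes a secreted inhibitor of neutrophil elastase and cathepsin G that is not a serpin. It fell with differentiation in the 3 siRNA groups. In siCtrl it went from 14.6, 9.41 and 12.7 CPM to 1.63, 1.35 and 1.73 (TRIzol library first), a log2 change of -2.96 ± 0.25 (adjusted p = 6.0e-08, edgeR). It was -3.17 between the TRIzol libraries and -2.85 between the NucleoSpin means. With siSMYD3#1 it went from 17.97, 12.9 and 13.6 CPM to 4.75, 5.82 and 7.60, a change of -1.30 ± 0.21 (adjusted p = 0.00013, edgeR). With siSMYD3#2 it went from 13.1, 11.4 and 11.3 CPM to 2.82, 3.95 and 4.93, a change of -1.61 ± 0.22 (adjusted p = 4.6e-05, edgeR). In all 3 groups every library at 24 h lay below every library at 0 h. Within each of these groups, 14.8% to 18.8% of all genes did so.

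Between each siRNA and siCtrl, Slpi differed at 24 h more than at 0 h. On the log2 scale at 24 h it stood 1.93 ± 0.26 above siCtrl with siSMYD3#1 and 1.31 ± 0.27 above with siSMYD3#2. There was no overlap, as in 7.2% and 8.2% of all genes. At 0 h Slpi stood 0.28 ± 0.20 above and 0.04 ± 0.20 below, and the libraries overlapped. These comparisons share the siCtrl libraries. The 2 siRNAs did not differ past the threshold from each other at 24 h (0.62 ± 0.23, adjusted p = 0.11, edgeR). Vector cells were at 10.99 and 10.1 CPM at 0 h and 4.54 and 4.29 at 24 h, a change of -1.29 ± 0.26 that missed the threshold in edgeR (adjusted p = 0.37) and passed in DESeq2 (adjusted p = 0.0064). SMYD3 CL5 was at 0.94 and 1.06 CPM at 0 h and 0.96 and 1.01 at 24 h, from 23 to 57 counts, and its change was -0.01 ± 0.28. The log2 difference of clone and vector was -3.47 ± 0.29 at 0 h and -2.19 ± 0.28 at 24 h, and at 0 h it was -3.33 and -3.52 without either clone library. The clone libraries at 0 h lay below even the siCtrl libraries at 24 h. Myogenic genes moved with these groups. Of 6 muscle genes and Smyd3 listed together, 5 were called lower with siSMYD3#1 and 6 with siSMYD3#2 than in siCtrl at 24 h (edgeR). Of all genes, 2.94% and 2.04% were called lower. The list includes the siRNA target Smyd3, at means of 19.9 CPM in siCtrl, 16.9 with siSMYD3#1 and 6.97 with siSMYD3#2. Myog was at 57.2 to 267 CPM in siCtrl, 5.75 to 20.2 with siSMYD3#1 and 32.0 to 49.5 with siSMYD3#2. The part of the myogenic genes in the values of Slpi was not tested.

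Ordered by level, Slpi was highest in the 3 siRNA groups at 0 h, whose libraries overlapped. Vector cells at 0 h, siSMYD3#1 cells at 24 h, and then vector and siSMYD3#2 cells at 24 h, which overlapped each other, came next. Then followed siCtrl at 24 h, and the clone at both times. For Serpine2 the order was siSMYD3#1 at 24 h, then the 4 groups siSMYD3#1 at 0 h, siCtrl at 24 h and 0 h and siSMYD3#2 at 0 h, whose neighbours overlapped, then siSMYD3#2 at 24 h, vector at 0 h, vector at 24 h and the clone. The 5 genes most like Slpi over the 26 libraries were Gspt1 (r = 0.917), Ptgs2 (0.915), Kif20a (0.906), Mtrex (0.888) and Abce1 (0.888). Unlike those of Serpine2, they kept r of 0.859 to 0.925 in the 18 siRNA libraries. Ptgs2, which encodes cyclooxygenase-2, was at 105 CPM in siCtrl at 0 h and 19.5 at 24 h, and at 19.7 in the clone at 0 h.

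Around Slpi, 53 other genes were tested in the clone within 2 Mb, and 0 passed at 24 h (edgeR). Their log2 differences at 24 h ranged from -8.52 to 7.67. The lowest was that of Cd40, an immune receptor of the tumor necrosis factor receptor family named here after its values were seen, with 51 and 67 counts with vector and 0 and 0 in the clone (adjusted p = 0.012). Its fitted value, against a group with 0 counts, is no bound. At 0 h 1 passed, Jph2, a junctional membrane protein of striated muscle, 956 kb away, higher in the clone by 1.95 ± 0.26 (adjusted p = 0.0094). The nearest, Matn4, is 0.298 kb from the annotated boundary of Slpi on the side of higher coordinates. It was at 0.40 CPM with vector and 0.12 in the clone at 24 h, with 4 counts in each clone library. Sdc4, 35.2 kb away, was at 175 and 151 CPM. Slpi shares 1 exon base with Mir7678 on the same strand, and the other 6 members share none.

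Read over the clone as a whole, 5 of the 7 genes had both clone libraries below both vector libraries at 0 h, and 5 at 24 h: Plat, Plau, Serpine2 and Slpi at both, with Serping1 at 0 h and Serpinf1 at 24 h. None lay above. Of all genes, 23.5% at 0 h and 25.0% at 24 h had all clone libraries below, as groups of 2 libraries separate easily, so the count is a description of genes chosen on these groups. Plaur overlapped at both times. The median log2 difference over the 7 was -0.88 at 0 h and -0.76 at 24 h, against -0.03 and 0.02 over all genes. These medians too only describe genes chosen on these groups. Myogenic genes also differed between clone and vector, with a median log2 difference of 5.86 at 0 h and 4.55 at 24 h. Of the 7 tested, Smyd3 among them, 1 (Myog) was called higher at 0 h and 0 at 24 h (edgeR). Of all genes, 0.465% and 0.376% were called higher. Myog was at 0.26 and 0.48 CPM with vector and 15.1 and 78.9 in the clone at 0 h, and its part in the values above was not tested. The fibroblast markers summed to 3207 to 4287 CPM with vector and 1226 to 1724 in the clone at 0 h, carried by Col3a1 and Col1a1. Pdgfra was at 9.02 and 11.7 CPM with vector and at 6.69 and 28.8 in the clone, below and above the vector libraries. The part of the fibroblast markers was not tested either.

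The extraction method moved 3 of the 7 genes between siRNA libraries of the same group. Plat was lower in NucleoSpin than TRIzol libraries by 0.37 ± 0.06 on the log2 scale (adjusted p = 1.5e-05), and the TRIzol library was the highest of its group in 6 of 6 groups. Plau was higher by 0.44 ± 0.06 (adjusted p = 1.0e-05) and its TRIzol library the lowest in 6 of 6, and Serping1 was higher by 1.23 ± 0.30 (adjusted p = 0.0018) and its TRIzol library the lowest in 5 of 6 (edgeR). The call of Serping1 was lost without the TRIzol siCtrl library at 24 h (log2 difference 0.77, adjusted p = 0.017). These 2 higher and 1 lower stand beside 25.3% of all genes called higher and 26.1% lower, so the share is no larger than the background. Extraction and passage changed together and cannot be told apart.

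Other genes of the plasminogen system changed over time in both directions. Of 17 partners listed, 10 were tested. In siCtrl 2 rose and 3 fell, with siSMYD3#1 1 rose and 6 fell, and with siSMYD3#2 1 rose and 2 fell. Of all genes, 14.6% were called higher and 14.8% lower in siCtrl, 12.7% and 12.7% with siSMYD3#1, and 9.11% and 9.88% with siSMYD3#2. The medians of the partners were -0.31, -0.51 and -0.29 on the log2 scale, against 0.03, 0.02 and 0.01 over all genes. Serpinb2, a serpin that inhibits urokinase, fell by 2.35 ± 0.31 in siCtrl. Hgf, a growth factor activated by proteases of this family, fell by 1.04 ± 0.11 in siCtrl and 0.96 ± 0.11 with siSMYD3#1. At 24 h Hgf stood higher with siSMYD3#2 than in siCtrl by 0.91 ± 0.11 (adjusted p = 0.00011, edgeR), and 0.75 ± 0.11 lower with siSMYD3#1 than with siSMYD3#2 (adjusted p = 5.0e-04). Lrp1, the endocytic receptor that clears complexes of activators with serpins, was higher with siSMYD3#1 than in siCtrl by 0.70 ± 0.14 (adjusted p = 0.0022). In these comparisons at 24 h, 2.91% of genes were called higher and 2.94% lower with siSMYD3#1, and 1.66% and 2.04% with siSMYD3#2.

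Serpins outside the 7 went in both directions. Of 18 tested in the siRNA libraries, 4 rose and 3 fell over 24 h in siCtrl, 4 rose and 2 fell with siSMYD3#1, and 2 rose and 2 fell with siSMYD3#2. Of all genes, 14.6% were called higher and 14.8% lower in siCtrl, 12.7% and 12.7% with siSMYD3#1, and 9.11% and 9.88% with siSMYD3#2. Serpinb6b rose by 2.26 ± 0.24 in siCtrl and was lower with siSMYD3#2 than siCtrl at 24 h by 1.63 ± 0.24 (adjusted p = 0.00034, edgeR). Of 13 other protease inhibitors tested, 3 rose and 1 fell in siCtrl, 2 rose and 0 fell with siSMYD3#1, and 3 rose and 2 fell with siSMYD3#2. In siCtrl Timp1, a metalloprotease inhibitor, fell by 0.76 ± 0.12 and Pi16 rose by 3.46 ± 0.31. Between extractions 11 serpins were higher in NucleoSpin libraries and 0 lower, beside 25.3% of all genes called higher and 26.1% lower. In SMYD3 CL5 against vector, 0 genes of these 3 lists passed at either time (edgeR). There 0.465% of all genes were called higher and 0.606% lower at 0 h, and 0.376% and 0.589% at 24 h.

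The thrombin pathway bears on Serpine2, which inhibits that protease. Of 9 genes tested in the siRNA libraries, 0 passed the threshold over 24 h in siCtrl, siSMYD3#1 or siSMYD3#2 (edgeR). Of all genes, 9.11% to 14.8% were called in each direction in these groups. Against siCtrl, F2r, which encodes the thrombin receptor PAR1, was higher with each siRNA at both times. In siCtrl it stood at 98.4, 81.1 and 87.7 CPM at 0 h and 113, 70.7 and 66.3 at 24 h. With siSMYD3#1 it was at 198, 176 and 172 CPM and then 243, 161 and 185, and with siSMYD3#2 at 233, 204 and 195 and then 242, 166 and 177 (TRIzol library first). No siRNA library against Smyd3 overlapped siCtrl. Within the single comparisons, 3.6% to 8.2% of all genes lay above siCtrl without overlap. The log2 differences were 1.03 ± 0.10 and 1.25 ± 0.10 with siSMYD3#1 at 0 h and 24 h (adjusted p = 7.0e-06 and 3.6e-07) and 1.24 ± 0.10 at each time with siSMYD3#2 (adjusted p = 2.9e-06 and 1.5e-06, edgeR). At 0 h 0.575% of all genes were called higher and 0.853% lower with siSMYD3#1, and 0.316% and 0.215% with siSMYD3#2. At 24 h the shares were 2.91% and 2.94% with siSMYD3#1, and 1.66% and 2.04% with siSMYD3#2. The comparisons share the siCtrl libraries, and vector cells, without siRNA, were at 217 to 288 CPM. SMYD3 CL5 was at 310 and 139 CPM at 0 h, above and below the vector libraries (217 and 225). At 24 h it was at 222 and 171 CPM, below vector (288 and 268), as in 25.0% of all genes. Of 10 genes of this list tested between clone and vector, 0 passed at either time (edgeR). F2r was named for being past the threshold in a list written with earlier results of these data known. Pros1, the anticoagulant protein S, was also higher with siSMYD3#1 at 24 h, by 0.80 ± 0.15 (adjusted p = 0.0019).

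**Figure D5:**
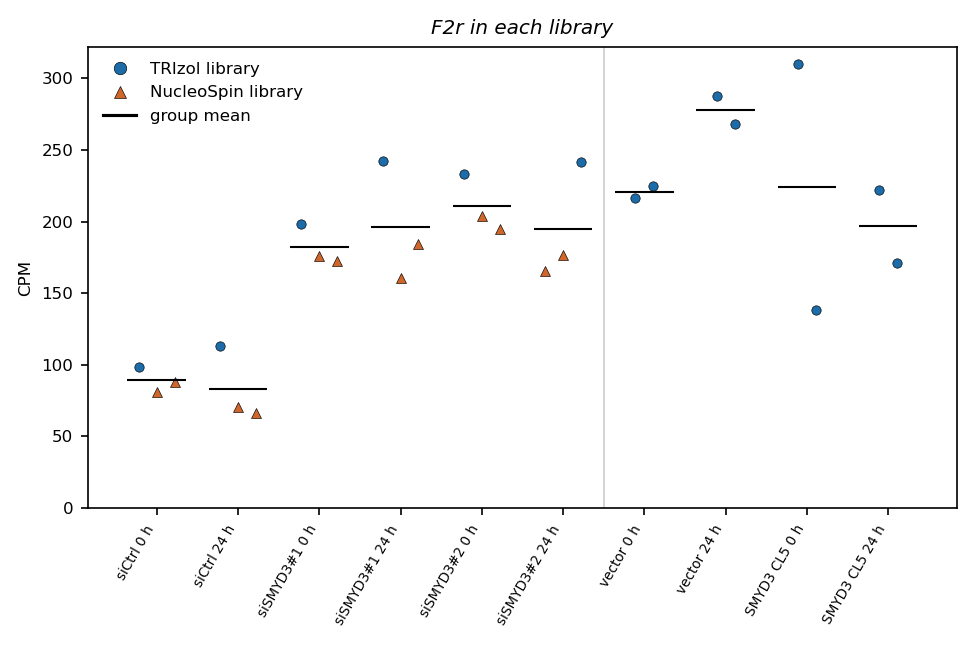
CPM of F2r in each of the 26 libraries, with circles for TRIzol, triangles for NucleoSpin and a bar for the group mean. The 6 siCtrl libraries sit between 66.3 and 113 CPM, below the 12 libraries with an siRNA against Smyd3, which sit between 161 and 243.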

How the data were processed

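Libraries were prepared by the authors with a stranded mRNA kit, aligned to GRCm38 with HISAT2 (2.1.0) and counted per gene with featureCounts (Subread 1.6.3), as the paper and the submitters' processing notes state. The deposited values are raw counts, whole numbers with no normalization. Whether counting used strand is not given in the sources used here. Symbols, coordinates and exon lengths came from GENCODE M21.

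Counts were fitted with edgeR 4.0.16 in R 4.3.3 (filterByExpr, TMM, quasi-likelihood with robust dispersion), with an adjusted p under 0.01. The 18 siRNA libraries formed 1 fit with extraction as covariate (15820 genes) and the 8 others another (17835 genes). All 7 members passed the filter in both. The standard error is the log2 fold change divided by the square root of F. CPM were scaled over all 26 libraries, and likeness is Pearson's r of log2(CPM + 1) among genes with a mean of at least 1 CPM. The code was tested on simulated data. The study's methods call the libraries of a group biological replicates. The sources used here do not say how their cultures were separated, so p-values measure the spread between these libraries.

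Deviations from group means of libraries sharing a replicate number in the study's sample sheet correlated at 0.477 to 0.871 in the siRNA groups, and at -0.110 to 0.220 among NucleoSpin libraries alone. The replicate block was an alternative. The members, the lists and the tests were chosen with earlier results of these data known. Named genes are the members, the 3 largest changes past the threshold per list of which a part is printed, the 3 nearest tested genes on each side of Serpine2 and Slpi, and the 5 most alike. A gene that this rule would name is not reported here. Fibroblast markers were a list too: 4 of 5 were at or above a mean of 1 CPM. The other settings were DESeq2 1.42.0, its size factors, no filter, an adjusted p under 0.05, no extraction term, NucleoSpin libraries alone, all 26 libraries in 1 fit, only the groups compared, and each library left out.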

Additional observations from a re-analysis of the deposited data

How the results depend on the processing

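The counts of members past the threshold for the change over 24 h were 3 in siCtrl, 4 with siSMYD3#1 and 2 with siSMYD3#2. Without the extraction term they were 1, 2 and 1, with DESeq2 4, 5 and 3, and with no filter 4, 6 and 3. In vector cells the 0 of the fit became 1 with DESeq2, 2 with all 26 libraries in 1 fit and 3 with only the groups compared. Between the siRNAs at 24 h the 1 became 4 at an adjusted p under 0.05, 2 with DESeq2 and 3 with NucleoSpin libraries alone. For the difference of the changes the 0 became 1 with no filter and 1 with NucleoSpin libraries alone. The causes were not tested. Leaving out single libraries gave 1 to 2 members with siSMYD3#2, 0 to 2 in SMYD3 CL5 (2 without its 0 h replicate 1) and 0 to 1 for the difference of the changes. With the replicate block, which pairs libraries by number, the counts were 3, 4, 2, 0, 0, 0, 1, 0 and 3, and no call of a member changed.

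Directions turned for log2 changes near 0. Serpinf1 with siSMYD3#2 over time was -0.0087 with all 26 libraries in 1 fit. Plaur between the siRNAs at 0 h was -0.0014 without the extraction term, -0.21 with NucleoSpin libraries alone and -0.017 with only the groups compared. With single libraries left out, Serpinf1 over time ranged from -0.039 to 0.085 in siCtrl and from -0.075 to 0.077 with siSMYD3#2. In SMYD3 CL5 over time Serping1 ranged from -0.94 to 0.67 and Slpi from -0.12 to 0.057. Plaur between the siRNAs at 0 h ranged from -0.27 to 0.14, and Serpine2 between extractions from -0.10 to 0.092. In the clone against vector at 0 h Plaur ranged from -0.40 to 0.36 and Serpinf1 from -0.48 to 0.73. Serping1, at 2 to 56 counts, is limited by depth.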
